A study of Danio rerio with 18 samples.

Results

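Whole zebrafish embryos injected with a morpholino against cardiac troponin T2 (tnnt2) were compared with control embryos at 36 hours post fertilisation (hpf). The comparison used every array titled 36 hpf, 3 of tnnt2 morphants and 3 of controls, which are 6 of the 18 arrays of the series. The remaining arrays hold the same 2 kinds of embryo at 48 and 60 hpf. They entered the normalisation, the brightness filter and the estimate of spread behind the 36 hpf test. They also serve to follow the genes that differed at 36 hpf. All embryos were of the AB wild-type strain and were kept in E3 medium at 28 °C. The morphants had received the troponin morpholino, injected when they consisted of a single cell. The design text describes an injected control morpholino for the controls, but their titles call them Wildtype AB. Whether the controls were injected is therefore not clear, and they are called controls here. A protocol gives 32 hours where the titles, the time labels and the design text give 36, and 36 is used here. Every pair of parents gave the same number of embryos to each group, and each array held total RNA of grouped whole embryos. Nothing in the labels says that the 3 RNA samples of a group are separate injections or clutches. The p-values therefore measure only the spread between arrays of the same group, which may be technical. That spread is pooled over all groups of the series and is not that of the 36 hpf arrays alone.

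A morpholino is a synthetic antisense oligonucleotide that blocks the translation or the splicing of a transcript in the early embryo. Which of these the troponin morpholino does is not stated in the labels. Cardiac troponin T ties the troponin complex to tropomyosin on the thin filament of heart muscle, and zebrafish embryos without it have a heart that does not beat and no blood flow. Zebrafish embryos at this age survive without a circulation, since oxygen reaches their tissues by diffusion, and the yolk supplies their lipid. At 36 hpf the retina is starting to form its first neurons and the skin is a thin epithelium rich in keratins.

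The level of a probe set, the group of probes on the array that measures a transcript, is given on the log2 scale after quantile normalisation of all 18 arrays. A difference is the morphant mean minus the control mean on that scale, with the standard error of the limma fit after ± and 3 arrays per group throughout. Because the fit pools the spread of all 18 arrays, the standard error of a probe set is the same at 36, 48 and 60 hpf. A probe set is called when its p-value is under 0.05 after Benjamini-Hochberg adjustment over all 11626 tested probe sets. Folds are given only where both group means reach 0.62, the limit under which a probe set was too dim to be tested, because the size of a difference is poorly set below it.

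The 3 morphant arrays resembled each other more than the 3 control arrays did. Over the tested probe sets the morphant arrays correlated with each other at 0.947 to 0.962 and the control arrays at 0.831 to 0.918. Control array 1 stood apart from all other 36 hpf arrays, with correlations of 0.813 to 0.837, and its median deposited level was 1.48 against 2.72 to 3.38 on the other 5. Its median deposited standard error, the authors' probe-level error of each value, was 0.820 against 0.290 to 0.404 on the others. Control array 3 correlated at 0.965 with morphant array 3, above its correlation of 0.918 with control array 2. Results are therefore also given without control array 1 and without control array 3 where that changes them. The correlations rest on the same 11626 probe sets and carry no p-value.

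**Figure D1:**
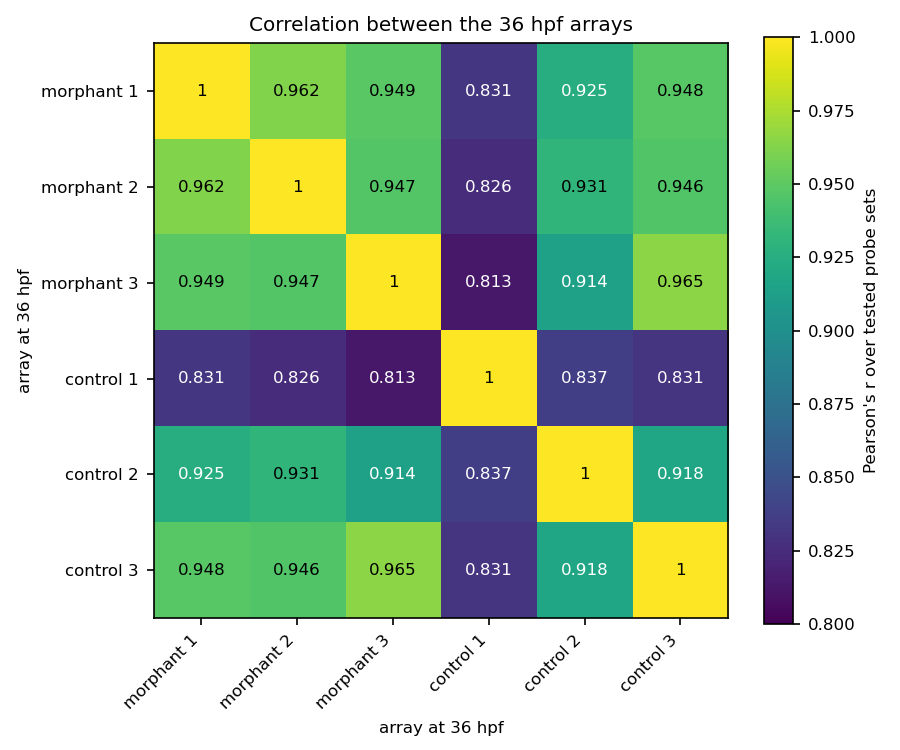
Pearson correlations between the 6 arrays of 36 hpf over the tested probe sets, with morphant arrays listed before control arrays on both axes. The morphant pairs lie at 0.947 to 0.962, control array 1 lies at 0.813 to 0.837 with every other array, and control array 3 is closest to morphant array 3 at 0.965.

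Of the marker genes on the array, 21 of 21 for skeletal muscle, 12 of 13 for the erythroid lineage, 20 of 21 for neurons and synapses and 11 of 17 for heart muscle were bright enough to be tested, under a limit set at the 25th percentile of all probe sets. Transcripts of tnnt2a, the targeted gene, were at 2.50, 1.59 and 1.95 in the morphant arrays, against 0.69, 2.62 and 2.77 in the control arrays. The ranges overlap through control array 1 alone. The 2 groups did not differ in the test (difference -0.02 ± 0.47, limma adjusted p = 0.992). Without control array 1 the difference was -0.68 (adjusted p = 0.846), and without control array 3 it was 0.35 (adjusted p = 0.683). In the authors' deposited table the log2 ratio of tnnt2a was -0.67. The transcript level of the target therefore does not tell the morphant arrays from the control arrays, and the groups rest on the labels alone.

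At 36 hpf, 21 probe sets differed between tnnt2 morphants and controls, which is 0.181% of those tested. Of these, 11 were higher in morphants (0.0946%) and 10 were lower (0.086%). The higher ones read insig1 (3 probe sets), msmo1, scarb2a, ube2d3 and cyt1, with 4 unnamed probe sets. The lower ones read krt15, crx, nr2e3 and zgc:136930, with 4 probe sets known only by similarity to a human protein and 2 with neither name nor similarity. At an unadjusted p under 0.05 there were 1534 probe sets (13.2%), 793 higher (6.82%) and 741 lower (6.37%), and 50.5% of all differences were above 0. In all 21 the morphant arrays lay on one side of the control arrays, which held for 13.9% of the tested probe sets, 6.93% with the morphants above and 6.93% with the morphants below.

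The size of this list depends on single arrays. Without control array 1 there were 17 calls (0.146%), and 14 of the 21 remained. Without control array 3 there were 293 calls (2.52%), of which 186 were higher (1.6%) and 107 lower (0.92%), and all 21 remained. Without morphant array 1 or 2 there were 12 or 13 calls, with 10 and 12 of the 21 among them. A fit that pairs the arrays by their number, the replicate block, called 14 higher and 10 lower, with 15 of the 21 among them. When the 6 arrays of 36 hpf were fitted alone, or all arrays were fitted with no normalisation between them, no probe set passed the adjusted threshold in limma, with 628 and 244 past an unadjusted p under 0.05. Across all 6 fits that left out 1 array, 7 of the 21 kept their call every time: 2 of insig1, krt15, crx, zgc:136930, and the probe sets similar to keratin 9 and to NDRG1.

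**Figure D2:**
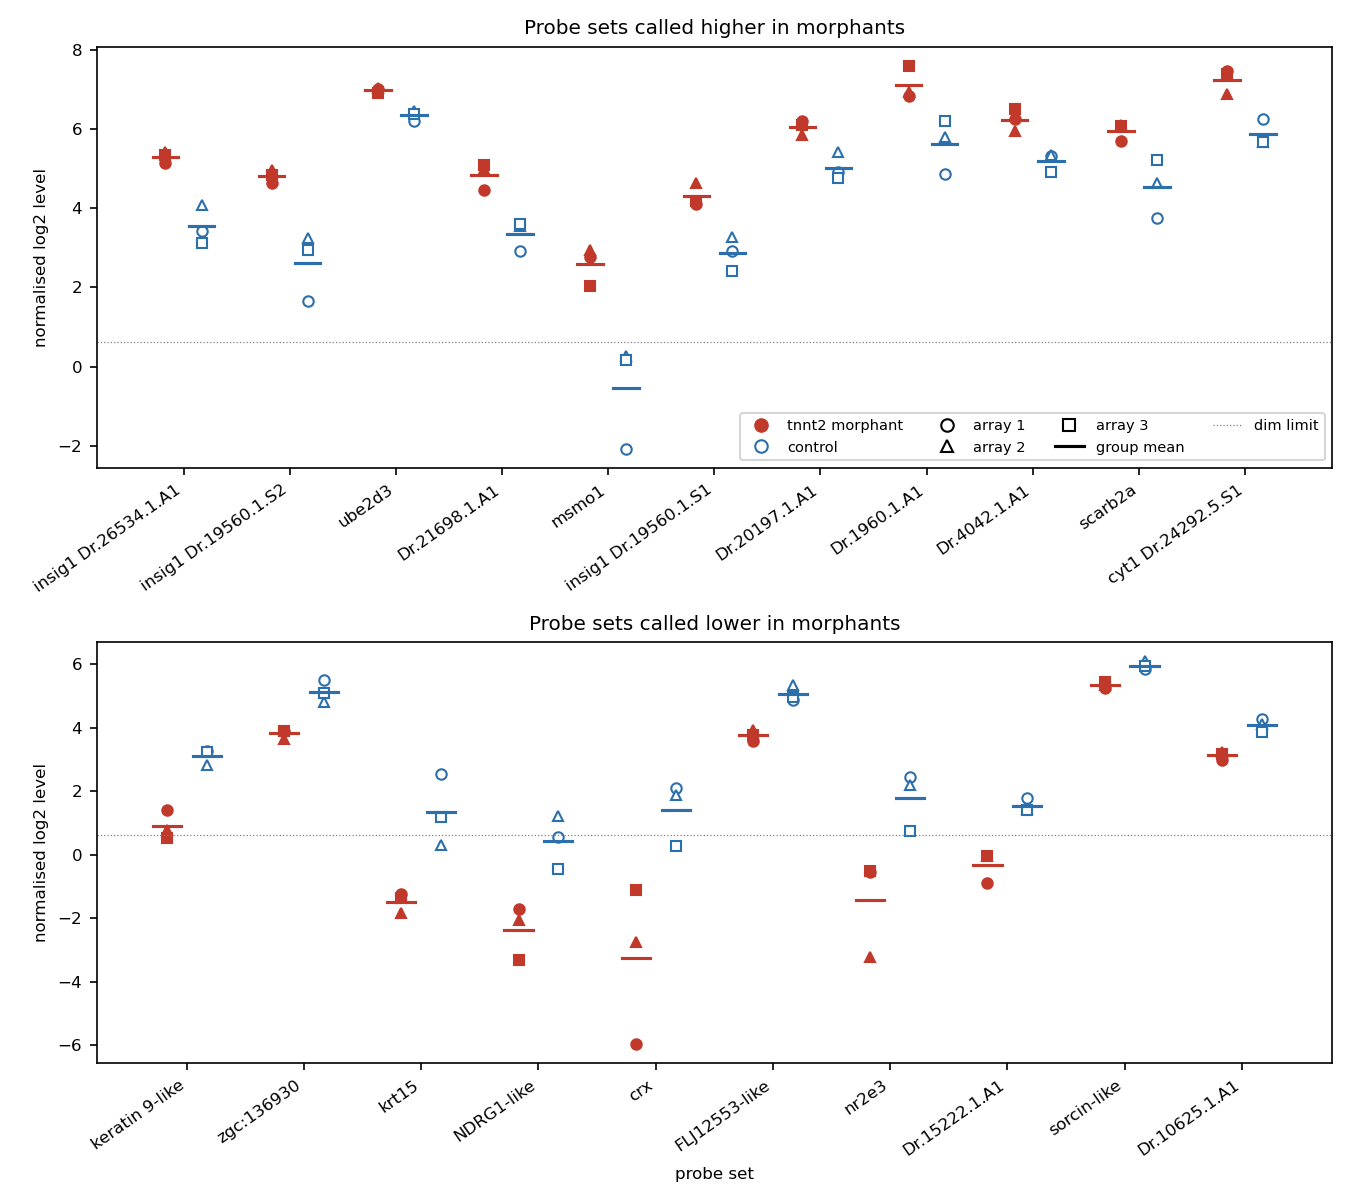
Normalised log2 level of each called probe set on every 36 hpf array, called higher above and called lower below, with filled red marks for tnnt2 morphants left of open blue marks for controls. Circles, triangles and squares are arrays 1, 2 and 3, lines are group means, and the dotted line is the dim limit of 0.62, under which the morphant means of krt15, crx, nr2e3, the NDRG1-like probe set and Dr.15222.1.A1_at lie.

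Of the sterol pathway, insig1 and msmo1 were higher in morphants. Cholesterol is made from acetyl-CoA in a long series of steps that begins with HMG-CoA and passes through farnesyl diphosphate and lanosterol. The transcription factor SREBP switches on most genes of the pathway when sterol in the endoplasmic reticulum is low. Insig1 is a protein of the endoplasmic reticulum that holds SREBP back there, and in mammals its own gene is a target of SREBP.

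The array has 3 probe sets for insig1, and all were called higher. Dr.26534.1.A1_at read 5.14, 5.44 and 5.35 in morphants, against 3.44, 4.10 and 3.14 in controls. Its morphant values were close together and all above the controls, a 3.37-fold difference (1.75 ± 0.21, limma adjusted p = 0.00168). Dr.19560.1.S2_at read 4.64, 4.98 and 4.85 in morphants, against 1.66, 3.26 and 2.95 in controls. Control array 1 was the lowest of these, and the difference of 2.20 ± 0.34 was 1.69 without it, called both ways. Dr.19560.1.S1_at read 4.11, 4.64 and 4.19 in morphants, against 2.93, 3.28 and 2.41 in controls (1.44 ± 0.26, limma adjusted p = 0.0234). This last call was lost without morphant array 1 (adjusted p = 0.0545) or morphant array 2 (adjusted p = 0.145). The name insig1 comes from the authors' own lists of changed genes, which were chosen on these arrays.

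Methylsterol monooxygenase, the product of msmo1, removes methyl groups from sterols downstream of lanosterol. Its probe set read 2.76, 2.95 and 2.04 in morphants, against -2.07, 0.27 and 0.18 in controls. The control mean was below the dim limit, so the difference of 3.13 ± 0.55 (limma adjusted p = 0.0219) sets no fold. It was 2.35 without control array 1 and still called (adjusted p = 0.0398), but was not called without morphant array 1 (0.0936) or 2 (0.107). In the authors' deposited table the log2 ratio of msmo1 was 2.34, and those of the 3 insig1 probe sets were 1.49, 1.35 and 1.20.

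Of the 38 genes listed for sterol synthesis and its regulators, 10 were on the array and 8 were bright enough to test. Of these 8, 2 were called higher, as were 0.0946% of all tested. All 8 differences were above 0, with a median of 1.47 against 0.01 for all tested probe sets, and 5 were higher at an unadjusted p under 0.05, as were 6.82% of all tested. When the members named only by the authors' lists (insig1 and cyp51) were left out, 6 were tested and 1 was called higher. All 6 were above 0, with a median of 1.54. Farnesyl diphosphate synthase, fdps, which acts before lanosterol, read 5.41, 5.90 and 5.72 in morphants, against 4.15, 4.76 and 4.54 in controls. Its arrays did not overlap, and with a difference of 1.19 ± 0.24 it missed the threshold in the fit without the replicate number (limma adjusted p = 0.0512) and passed it with the number as a block (0.0467). Without control array 1 its adjusted p was 0.192, and without control array 2 or 3 it was called (0.0482 and 0.0295).

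HMG-CoA synthase, hmgcs1, the enzyme at the start of the pathway, read 4.20, 4.62 and 3.88 in morphants, against 1.94, 1.80 and 3.28 in controls (1.89 ± 0.61, limma adjusted p = 0.245). The list and all its counts also hold the fatty acid desaturase fads2, which is no sterol enzyme. It read 2.71, 3.08 and 2.73 in morphants, against 2.18, 0.33 and -0.14 in controls. For both genes every morphant array was above every control array, but the controls were spread widely, and fads2 (2.05 ± 0.55, adjusted p = 0.172) was called without control array 1 (2.74, adjusted p = 0.0308). Acetyl-CoA acetyltransferase acat2 differed by 0.39 ± 0.19 and the lanosterol demethylase cyp51, a name taken from the authors' lists, by 0.92 ± 0.91. Averaged over the times, cyp51 was under the dim limit in controls and passed the filter through the morphants, which favours a difference above 0. The nuclear envelope protein lbr, which has sterol reductase activity, differed by 0.20 ± 0.22. None of these 3 was called (adjusted p = 0.380 to 0.677), and lbr was lower in morphants when the arrays were centred on their medians. Without control array 1 the median of the 8 was 1.67, with 6 past an unadjusted p under 0.05, where 3.17% of all tested probe sets were higher and 3.05% lower by that rule. Probe sets of nsdhl and scd were too dim to test.

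**Figure D3:**
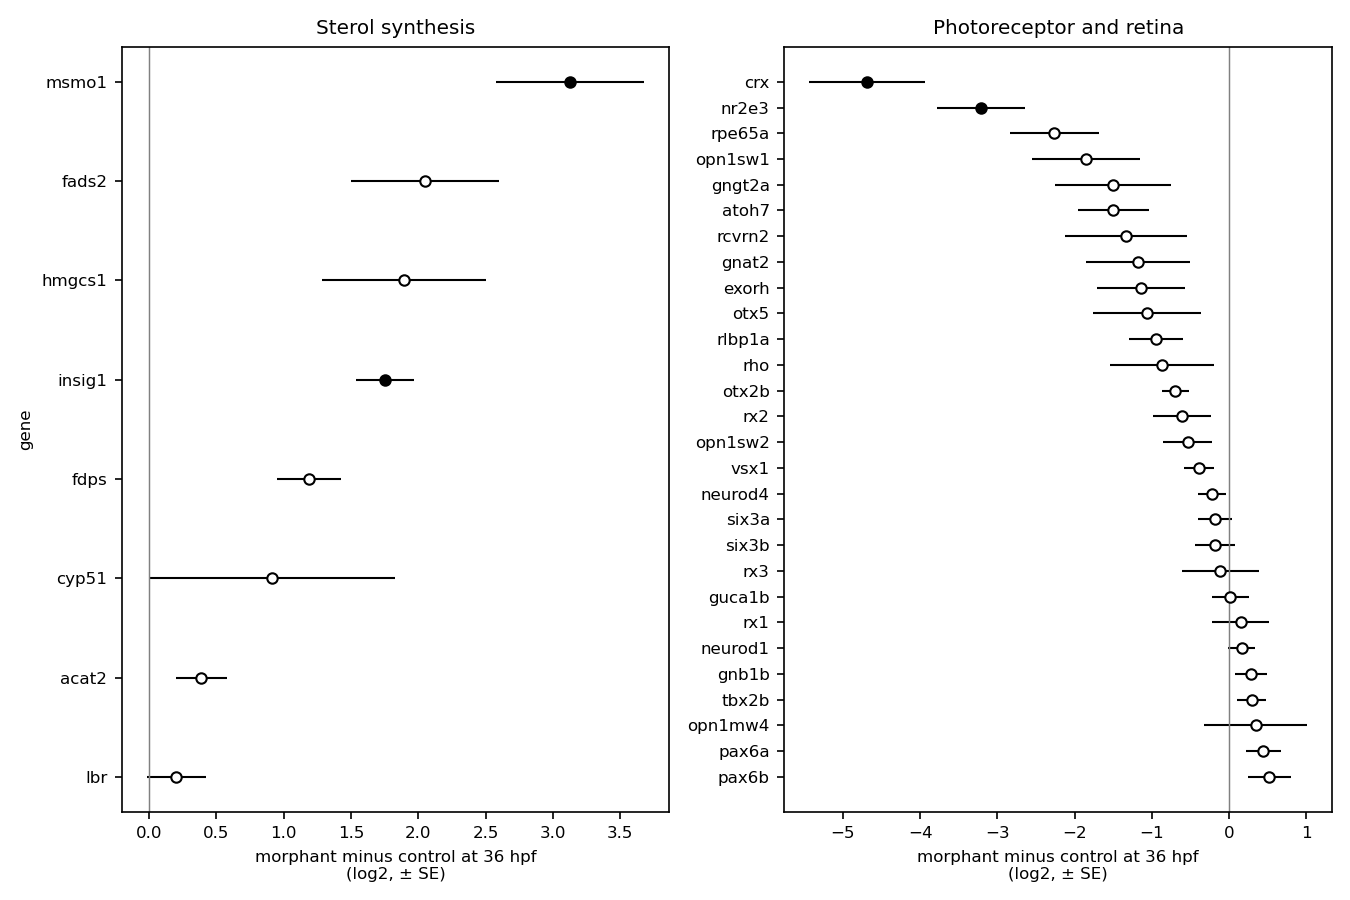
Difference at 36 hpf, morphant minus control on the log2 scale with its standard error, for every tested gene of the sterol list (left) and of the photoreceptor and retina list (right), with filled points for called genes. All 8 genes of the sterol list, the fatty acid desaturase fads2 included, lie above 0 with msmo1 highest at 3.13. On the right 20 of 28 retina genes lie below 0 with crx lowest at -4.69.

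The other named probe sets that were higher belong to the lysosome, the ubiquitin system and the skin. The gene scarb2a encodes a lysosomal membrane protein, which in mammals carries glucocerebrosidase to the lysosome. It read 5.71, 6.11 and 6.07 in morphants, against 3.75, 4.65 and 5.23 in controls, 2.68-fold higher (1.42 ± 0.27, limma adjusted p = 0.0300). All 3 control arrays were lower, with control array 1 the lowest and control array 3 the closest to the morphants. The call was lost without any 1 of 5 arrays, at adjusted p values between 0.0525 and 0.147, and was kept without control array 3. It was the only called gene of the 8 tested on the lysosome list, whose median was 0.11. In the authors' deposited table its log2 ratio was 0.41.

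The gene ube2d3 encodes an enzyme that passes ubiquitin to target proteins together with many ligases. It read 7.02, 7.03 and 6.93 in morphants, against 6.21, 6.46 and 6.39 in controls. The spread within groups was small, and the difference of 0.64 ± 0.11 was 1.56-fold (limma adjusted p = 0.0165). With the replicate number as a block its adjusted p was 0.0516, and it was also lost without morphant array 1 (0.0723) or 2 (0.0842). No other gene of the 12 tested on the ubiquitin list was called, and the list's median was -0.01. The authors' deposited table gives ube2d3 a log2 ratio of 0.07.

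The cytokeratin gene cyt1, a type I keratin of the skin, has 5 probe sets of which 1 was called higher. Dr.24292.5.S1_at read 7.48, 6.89 and 7.41 in morphants, against 6.27, 5.69 and 5.67 in controls, 2.61-fold higher (1.38 ± 0.27, limma adjusted p = 0.0383). The brightest cyt1 probe set read 10.15, 10.32 and 10.32 in morphants, against 9.81, 10.05 and 10.13 in controls. Its difference of 0.27 ± 0.08 was not called (adjusted p = 0.213), but without control array 3 it was 0.34 and called (adjusted p = 0.0386). The other 3 cyt1 probe sets differed by -0.08 to 0.09 and were not called. The call of Dr.24292.5.S1_at was lost without control array 2, morphant array 1 or morphant array 3 (adjusted p = 0.0946, 0.201 and 0.122).

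The other 4 higher probe sets have no gene name and no protein similarity in the files. Dr.21698.1.A1_at read 4.46, 5.0 and 5.11 in morphants, against 2.93, 3.56 and 3.61 in controls (1.49 ± 0.25, limma adjusted p = 0.0165). Dr.1960.1.A1_at read 6.84, 6.95 and 7.60 in morphants, against 4.87, 5.82 and 6.20 in controls. Dr.20197.1.A1_at read 6.21, 5.86 and 6.12 in morphants, against 4.92, 5.42 and 4.76 in controls. All 3 lost their call without control array 1 (adjusted p = 0.0537, 0.0593 and 0.0647) and without morphant array 3 (0.0760, 0.105 and 0.0799). The call of Dr.20197.1.A1_at was also lost without morphant array 1 (0.146) and with the replicate block (0.0516), and those of the other two without morphant array 2 (0.0881 and 0.0676). Dr.4042.1.A1_at read 6.26, 5.95 and 6.52 in morphants, against 5.33, 5.36 and 4.92 in controls, and was 2.05-fold higher. Its call remained without control array 1 (adjusted p = 0.0374) and was lost without morphant array 1 (0.122) or 3 (0.110).

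Among the probe sets lower in morphants, 3 read as keratins, the filament proteins of epithelia. In whole-embryo RNA, fewer cells of a type and less RNA per cell cannot be told apart. Dr.24899.1.A1_at, with weak similarity to human keratin 9, read 1.43, 0.78 and 0.52 in morphants, against 3.27, 2.84 and 3.25 in controls. Its difference was -2.21 ± 0.28 (limma adjusted p = 0.00168), with deposited standard errors of 1.32 to 1.71 in the morphant arrays, against 0.377 to 0.894 in the control arrays, so its size is poorly set. The probe set of zgc:136930, with weak similarity to human keratin 10, read 3.92, 3.66 and 3.92 in morphants, against 5.51, 4.82 and 5.09 in controls. In both the 2 groups stood well apart, and the difference of zgc:136930 was -1.31 ± 0.17 (adjusted p = 0.00203), 2.48-fold higher in controls.

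The krt15 probe set read -1.24, -1.85 and -1.37 in morphants, against 2.55, 0.31 and 1.19 in controls (-2.84 ± 0.43, limma adjusted p = 0.00714). All 3 morphant values lay below the dim limit, with deposited standard errors of 1.98 to 2.54, against 0.974 to 1.30 in the control arrays. The standard deviation was 1.13 in controls and 0.318 in morphants, against 0.148 to 0.416 in the groups of 48 and 60 hpf. The pooled standard error therefore understates the spread of the krt15 controls at 36 hpf. Control array 1 was the highest, and without it the difference was -2.25 and still called. In the authors' deposited table krt15 had a log2 ratio of -1.66, the keratin 9-like probe set -2.59 and zgc:136930 -1.18.

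Read over all keratins, the values went both ways. By description text 33 tested probe sets of 15 UniGene clusters read as keratins, a group that does not hold krt15's own probe set. Of these 33, 1 was called higher (cyt1) and 2 lower, against 0.0946% and 0.086% of all tested. Differences were above 0 in 10 and below 0 in 23, with a median of -0.09, which became -0.44 when the arrays were centred on their medians, a scaling that moved the median of all tested probe sets by -0.12. That shift is not particular to keratins. Centring moved the median of ribosomal proteins from -0.04 to -0.40 and that of tubulins from -0.17 to -0.55. Zinc finger proteins moved less, from 0.01 to -0.07. At an unadjusted p under 0.05, 4 of the 33 keratin probe sets were higher and 9 lower, against 6.82% and 6.37% of all tested, and without control array 1 these counts were 3 and 5. The bright keratins krt4 and krt5 were not called. The krt4 probe set with the highest level read 10.20, 10.13 and 10.10 in morphants, against 9.98, 10.13 and 10.06 in controls, and krt5 read 7.99, 7.73 and 7.44 in morphants, against 8.01, 7.80 and 7.57 in controls. A type I keratin by similarity, Dr.5531.3.S1_at, read 6.87, 6.90 and 7.29 in morphants, against 7.55, 7.44 and 7.73 in controls, and missed the threshold (-0.55 ± 0.12, limma adjusted p = 0.0600), which it passed with the replicate block (0.0332).

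The photoreceptor transcription factors crx and nr2e3 were lower in morphants. Photoreceptors are born after the other early retinal neurons. The homeobox factor Crx, with Otx2, switches on photoreceptor genes, and the nuclear receptor Nr2e3 acts with it to set rod identity. The crx probe set read -5.95, -2.75 and -1.09 in morphants, against 2.12, 1.87 and 0.28 in controls. All morphant arrays were lower, and the difference of -4.69 ± 0.75 was called (limma adjusted p = 0.0104). Its size is poorly set, since the morphant values lie far below the dim limit with deposited standard errors of 1.37 to 3.67, against 0.435 to 0.983 in the control arrays. The standard deviation of crx at 36 hpf was 2.47 in morphants and 0.998 in controls, against 0.128 to 0.301 in the groups of 48 and 60 hpf. The pooled standard error therefore understates the spread of crx at 36 hpf.

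The nr2e3 probe set read -0.54, -3.23 and -0.50 in morphants, against 2.44, 2.18 and 0.74 in controls (-3.21 ± 0.57, limma adjusted p = 0.0234). Morphant array 2 was the lowest and control array 3 the lowest of the controls. The standard deviation of nr2e3 was 1.56 in morphants and 0.919 in controls, against 0.210 to 0.518 in the groups of 48 and 60 hpf. For nr2e3 too the pooled standard error understates the spread at 36 hpf. The call was lost with the replicate block (adjusted p = 0.0516) and without control array 1 (0.0893) or 2 (0.0611). In the authors' deposited table its log2 ratio was -3.53.

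Of 70 genes listed for photoreceptors and retina, 41 were on the array and 28 were bright enough to test. None was called higher and 2 were called lower, as were 0.086% of all tested. Differences were below 0 in 20 and above 0 in 8, with a median of -0.57, and at an unadjusted p under 0.05 there were 7 lower and 0 higher, against 6.37% and 6.82% of all tested. The median was -0.38 without control array 1, with 5 lower by that rule, and -0.31 when the members named only by the authors' lists (rpe65a, rlbp1a, gngt2a and rcvrn2) were left out. Averaged over the times, gngt2a, rcvrn2, gnat2 and opn1sw1 were under the dim limit in morphants. They passed the filter through the controls, which favours differences below 0. The 20 below 0 and the median of -0.57 include these genes, and the median of -0.31 still includes gnat2 and opn1sw1. Genes that act earlier in the eye were not called. The homeobox gene otx2b read 4.76, 4.83 and 4.26 in morphants, against 5.50, 5.32 and 5.12 in controls, with no overlap (-0.70 ± 0.17, limma adjusted p = 0.135). The gene atoh7, which is needed for the first retinal ganglion cells, read 2.42, 3.19 and 2.29 in morphants, against 4.60, 3.74 and 4.05 in controls (-1.50 ± 0.46, adjusted p = 0.231).

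The differences of the eye field genes rx1, rx3, six3a and six3b lay between -0.18 and 0.15, with rx3 above 0 in the values as deposited. Those of pax6a and pax6b were 0.44 and 0.52, and none of these genes was called. Genes of light detection were dim at this age. The ultraviolet opsin opn1sw1 read -1.39, -0.79 and -0.71 in morphants, against 2.04, 1.65 and -1.02 in controls, so the groups overlapped through control array 3. The blue opsin opn1sw2 read 1.88, 1.92 and 2.03 in morphants, against 2.98, 2.27 and 2.19 in controls, which do not overlap (-0.54 ± 0.32, limma adjusted p = 0.459). Rod opsin, rho, differed by -0.87 ± 0.67, the pineal opsin exorh by -1.14 ± 0.57 and the cone transducin gnat2 by -1.18 ± 0.68. Of 17 opsin and transducin probe sets by description text, 8 were above 0 and 9 below, with a median of -0.11. At an unadjusted p under 0.05, 0 of these were higher and 1 was lower, against 6.82% and 6.37% of all tested. Without control array 1, 4 were above 0 and 13 below. The retinoid isomerase rpe65a of the pigment epithelium read -1.0, 1.04 and -0.83 in morphants, against 3.14, 1.52 and 1.34 in controls (-2.26 ± 0.57, adjusted p = 0.151). Another 13 genes of the list were too dim to test, among them gnat1, opn1lw1, prph2a and six7. Without control array 3, rpe65a, otx2b and opn1sw1 were called lower beside crx and nr2e3, where 0.92% of all tested were called lower.

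The other 5 lower probe sets have no gene name. Dr.8090.1.A1_at, with weak similarity to human NDRG1, read -1.71, -2.07 and -3.31 in morphants, against 0.56, 1.22 and -0.46 in controls (-2.80 ± 0.43, limma adjusted p = 0.00714). Both group means were below the dim limit, so the size of this difference is poorly set and no fold is given. The standard deviation was 0.838 in morphants and 0.847 in controls, against 0.151 to 0.334 in the groups of 48 and 60 hpf. The pooled standard error of this probe set therefore understates its spread at 36 hpf. The call was kept without each of the 6 arrays. Dr.17397.1.A1_at, with moderate similarity to a human hypothetical protein, read 3.57, 3.94 and 3.78 in morphants, against 4.88, 5.34 and 4.96 in controls, 2.45-fold higher in controls (-1.29 ± 0.21, adjusted p = 0.0134, and 0.0723 without morphant array 1). Dr.5366.2.S1_at, with weak similarity to the calcium-binding protein sorcin, read 5.26, 5.35 and 5.44 in morphants, against 5.84, 6.10 and 5.94 in controls. Its groups were tight, with a difference of -0.61 ± 0.12 (adjusted p = 0.0318). Dr.10625.1.A1_at read 3.00, 3.23 and 3.16 in morphants, against 4.27, 4.12 and 3.87 in controls. Dr.15222.1.A1_at read -0.89, -0.05 and -0.03 in morphants, against 1.78, 1.46 and 1.41 in controls. The last 3 lost their calls with the replicate block (adjusted p = 0.0624, 0.0894 and 0.0624). They also lost them without control array 2, morphant array 1 or morphant array 2 (adjusted p = 0.0572 to 0.199), the last 2 without control array 1 (0.162 and 0.120), and Dr.10625.1.A1_at without morphant array 3 (0.0904).

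The called probe sets were then read at 48 and 60 hpf, on arrays that were not averaged in the 36 hpf means. These arrays share the normalisation, the filter and the pooled spread with the 36 hpf test. A probe set picked at 36 hpf for a small pooled spread is thus more easily called at the later times, and the later calls are not independent. All 11 that were higher at 36 hpf had a difference above 0 at both later times. Of these 11, 6 were called higher at 48 hpf, where 0.37% of the tested probe sets were, and 6 at 60 hpf, where 0.68% were. The 5 called at all 3 times were the 3 insig1 probe sets, msmo1 and Dr.21698.1.A1_at. For msmo1 the difference was 3.13 at 36 hpf, 3.75 at 48 hpf and 2.72 at 60 hpf, and for Dr.21698.1.A1_at it was 1.49, 1.63 and 1.82. In fdps it was 1.19, 1.43 and 2.04, called at 48 hpf (limma adjusted p = 0.00827) and 60 hpf (5.40e-04). The cyt1 probe set had 1.38, 0.39 and 0.48, with no call after 36 hpf.

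Of the 10 that were lower at 36 hpf, 5 had a difference below 0 at 48 hpf and 0 were called lower by limma, against 0.198% of the tested probe sets. At 60 hpf all 10 had a difference below 0 and 2 were called lower (zgc:136930 and Dr.17397.1.A1_at), against 0.241%. Their median difference was -2.04 at 36 hpf, -0.02 at 48 hpf and -0.93 at 60 hpf, while for the 11 higher ones it was 1.44, 0.87 and 1.37. Since the probe sets were picked at 36 hpf, a larger median there is part of the choice.

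The differences at the 3 times were then tested against each other. The F-test of equal morphant minus control differences at 36, 48 and 60 hpf called 3 probe sets (0.0258%), and 6 with the replicate block. Besides krt15 these were the type I keratin krt1-19d, with differences of 1.23, 4.19 and -1.08, and an unnamed probe set at -0.08 at 36 hpf, neither of which was called at 36 hpf. For krt15 the differences were -2.84 at 36 hpf, 1.51 at 48 hpf and -1.0 at 60 hpf (limma adjusted p = 0.0180). The keratin 9-like probe set had -2.21, 0.10 and -1.11, and zgc:136930 had -1.31, 0.09 and -0.86, which the F-test did not call (adjusted p = 0.102 for both). For crx (-4.69, -1.08 and -1.46) and nr2e3 (-3.21, -0.93 and -1.29) the F-test adjusted p was 0.532 and 0.600, so the smaller later differences of these 2 genes are not shown to differ from those at 36 hpf.

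**Figure D4:**
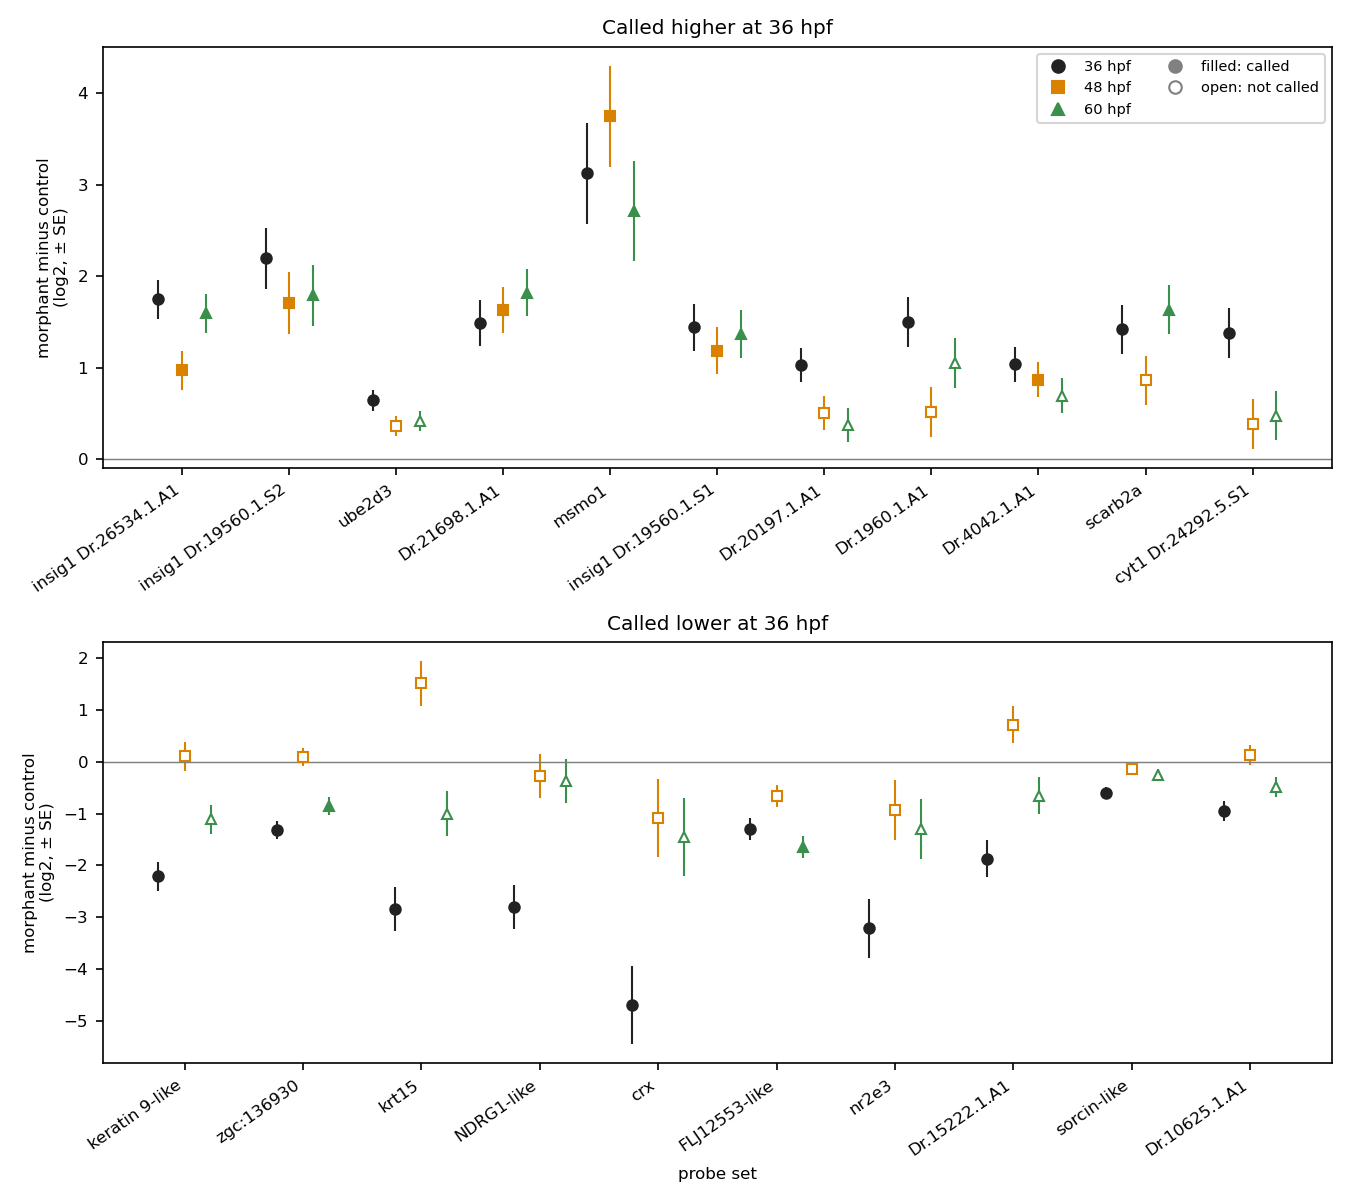
Morphant minus control difference on the log2 scale with its standard error at 36, 48 and 60 hpf for the probe sets called higher (above) and lower (below) at 36 hpf, filled where called at that time. The 11 higher probe sets stay above 0 at every time, while krt15 lies at -2.84, 1.51 and -1.0 at the 3 times.

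The course of these transcripts in normal development was read from the control arrays of 48 and 60 hpf. Of the 10 lower probe sets, 9 had more transcript in controls at 60 than at 48 hpf, as had 49.1% of all tested, and 4 were called higher at 60 hpf, as were 13.5% of all. The 4 called higher at 60 hpf were krt15 (2.36, limma adjusted p = 0.00124), Dr.15222.1.A1_at (2.19, 6.11e-04), the keratin 9-like probe set (1.21, 0.00551) and zgc:136930 (0.93, 0.00146). Of the 11 higher probe sets, 4 had more transcript at 60 than at 48 hpf, 2 called higher and 2 called lower. The median changes were 0.84 for the lower set and -0.19 for the higher set.

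The calls also differ in how well the array measured them. The median deposited standard error on the 36 hpf arrays was 0.630 for the 10 lower probe sets, 0.165 for the 11 higher ones and 0.273 for all tested. A group mean below the dim limit occurred in 5 of the 10 and in 1 of the 11, as against 5.68% of the tested probe sets. When each value was weighted by its deposited standard error, 14 of the 21 calls remained, and krt15, crx, nr2e3, msmo1, Dr.15222.1.A1_at and the probe sets similar to keratin 9 and NDRG1 were lost (adjusted p = 0.14 to 0.40).

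The authors' own 36 hpf lists were not chosen by the adjusted p used here, and entries too dim to be tested could not be called. The shares of their lists called here are therefore no measure of agreement. Their list of higher probe sets has 22 entries, of which 5 were bright enough to be tested and 4 were called, 18.2% of their list and 36.4% of the 11 calls. Their list of lower probe sets has 36 entries, of which 23 were tested and 2 called, 5.56% of the list and 20% of the 10 calls. All tested entries of both lists had the authors' direction, on the same arrays, and 5 of the higher and 18 of the lower passed an unadjusted p under 0.05.

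Just outside the threshold, 15 named genes on each side had the smallest p-values among those whose arrays did not overlap. None of these 30 was called. On the higher side, after fdps, came lama5, a laminin chain of the skin's basement membrane (0.92 ± 0.19, limma adjusted p = 0.0517), and the mitochondrial adenylate kinase ak3 (1.05 ± 0.22, 0.0561). Next were the ribosome assembly factor rsl24d1 (0.53), the antiproliferative gene btg2 (0.83), the transcription regulators sox6 (0.95) and id3 (0.52), and further down the giant muscle protein ttn.2 (1.80, 0.172). In these 15 the later arrays mostly ran the same way, 13 at 48 hpf and 14 at 60 hpf, where 51.8% and 49.7% of all tested were above 0. Of the 15, 4 were called higher at 48 hpf and 5 at 60 hpf, against 0.37% and 0.68% of all tested. The genes were picked for a small p with the same pooled spread, so these later calls are not independent. Called at 60 hpf were fdps, ak3, rsl24d1, btg2 and id3.

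On the lower side came ifrd1 (-0.76 ± 0.16, limma adjusted p = 0.0662, and 0.0383 with the replicate block), the tyrosine-degrading enzyme hgd (-1.06, 0.0947), actb1, a cytoplasmic actin (-0.26, 0.108), and otx2b and rpe65a of the eye. Below these were the cortexin ctxn2 (-1.14), the neural factor bhlhe22 (-0.68) and the retinol-binding protein rbp2a (-1.0). Of these 15, 14 were below 0 at 48 hpf and all 15 at 60 hpf, where 51.8% and 49.7% of all tested were above 0. The gene bhlhe22 was called lower at 60 hpf (limma adjusted p = 0.0197), as were 0.241% of all tested. Without control array 3, 9 of the 15 higher and 9 of the 15 lower genes were called. Without control array 1 these counts were 2 (lama5 and fads2) and 0.

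Lists of genes for the heart, the vessels, the blood and muscle were also read. With 0.181% of all tested probe sets called, 0 calls in lists of this size say nothing particular to them. On the heart muscle list 0 of 11 tested genes were called by limma, with 3 higher and 1 lower at an unadjusted p under 0.05, against 6.82% and 6.37% of all tested, and a median of 0.02. The cardiac light chain myl7 read 5.50, 5.43 and 5.52 in morphants, against 4.77, 5.16 and 5.27 in controls (0.42 ± 0.15, adjusted p = 0.295). The muscle transcription factor mef2ca read 4.12, 3.94 and 4.01 in morphants, against 0.87, 2.66 and 3.35 in controls (1.73 ± 0.56, adjusted p = 0.245), and the myosin light chain cmlc1 differed by -0.60 ± 0.27. In each of these 3 genes control array 1 was the control farthest from the morphants, and without it no gene of the list passed the unadjusted threshold. Without control array 3, mef2ca was called higher (2.26, limma adjusted p = 0.0434), as were 1.6% of all tested.

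On the list for endothelium and flow-responsive genes, 0 of 18 were called, 1 was lower at an unadjusted p under 0.05, and the median was -0.01. The flow-induced factor klf2a read 2.71, 2.58 and 2.23 in morphants, against 2.67, 3.00 and 3.11 in controls (-0.42 ± 0.23, limma adjusted p = 0.431). Its paralogue klf2b differed by 0.53 ± 0.28 (adjusted p = 0.409), and the sphingosine receptor s1pr1 differed by -0.46 ± 0.19 (0.339). Of 12 erythroid genes 0 passed either threshold, with a median of 0.09. Of 14 haemoglobin probe sets by description text 0 were called, with a median of -0.09. At an unadjusted p under 0.05, 1 of these was higher and 5 were lower. Without control array 1 these counts were 0 and 5, against 3.17% and 3.05% of all tested. Without control array 3, 1 haemoglobin probe set was called lower, against 0.92% of all tested. Among 13 hypoxia genes 0 were called and 2 were higher at an unadjusted p under 0.05, p4ha1b (0.63 ± 0.23) and igfbp1a (0.68 ± 0.26), with a median of 0.27, which was 0.05 without control array 1. Skeletal muscle had 0 of 21 called, with 3 higher by the unadjusted rule, and without control array 3 the myosin heavy chain myhz2 was called higher (0.80, limma adjusted p = 0.0485). Of all tested probe sets 0.181% were called, and 6.82% were higher and 6.37% lower by the unadjusted rule. Without control array 3, 1.6% of all tested were called higher.

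**Figure D5:**
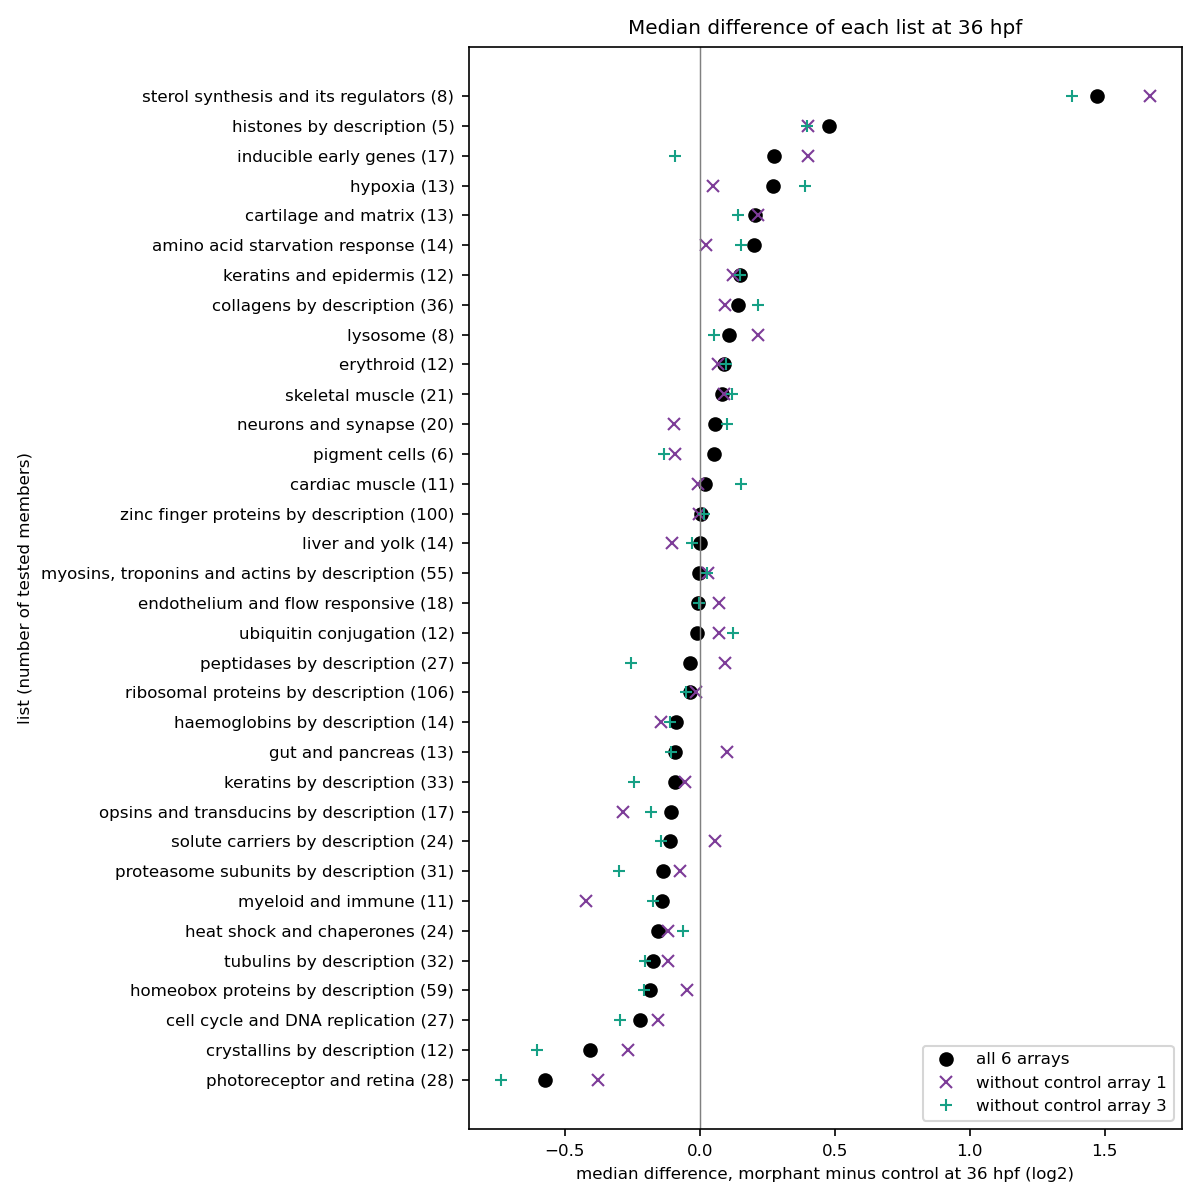
Median difference at 36 hpf, morphant minus control on the log2 scale, over the tested members of each gene list or description group with at least 4, their number in parentheses, with all 6 arrays (black), without control array 1 (crosses) and without control array 3 (plus signs). The sterol list stands at 1.47 and the photoreceptor and retina list at -0.57, while heart muscle, erythroid and endothelial lists lie between -0.01 and 0.09.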

How the data were processed

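RNA of whole embryos was hybridised to Affymetrix zebrafish arrays. Sample titles gave the group and the number of each array. The deposited values are log2 expression values that the authors estimated with the mmgMOS model of the puma package, per the deposited readme and file names. The version of puma is not stated there, and neither is the log base, which was taken as 2. The deposited standard errors and log2 ratios come from the same package. Precision is limited by the number of arrays, and the standard error of a 36 hpf difference had a median of 0.285.

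Control probe sets (115) were dropped, the other 15502 were quantile normalised, and those with a mean under the 25th percentile were left out. With limma 3.58.1 (R 4.3.3), 6 group means were fitted to the 18 arrays with eBayes moderation along intensity (residual df 12, prior df 6.24), followed by Benjamini-Hochberg adjustment. The code was tested on simulated data. Alternatives changed the normalisation, the arrays fitted, the filter, the trend, the weights and the replicate term, and left out each array in turn.

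Gene names came from deposited descriptions, UniGene clusters and the authors' lists, checked against a RefSeq gene table (GRCz12tu, names only). This gave 1 name to 4265 probe sets, several to 41 and none to 11196, and 29.3% of the tested had a name. Each list gene is represented by its brightest probe set. The names of 1 sheet, which matched their probe sets in 0 of 19 checks, were not used. Named by rule are tnnt2a, every called probe set, the 15 nearest named genes on each side, called and up to 4 leading members of each list, and all tested sterol and retina genes, except 1 gene that is not reported here and was taken out of the retina list. Any other name was chosen after its values were seen. The members and lists were chosen with earlier results of these data known.

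Same-numbered morphant and control arrays of 36 hpf deviated together from their group means (correlations of 0.105, 0.138 and 0.271, against -0.171 to 0.026 for arrays of unlike number). The numbers were therefore taken to pair the arrays, although the labels do not say what a number stands for. The fit with the replicate number as a block is given beside results it changes.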

Additional observations from a re-analysis of the deposited data

Results flagged for a closer look

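The difference between morphants and controls in krt15 was called unequal at the 3 times (limma F-test of the difference between times, adjusted p = 0.0180). At 36 hpf morphants were lower, by -2.84 ± 0.43 with all 3 morphant arrays below all 3 controls, at 48 hpf they were higher by 1.51 without passing the test (adjusted p = 0.138), and at 60 hpf lower by -1.0 (adjusted p = 0.244). The 3 morphant values at 36 hpf lay below the dim limit, with deposited standard errors of 1.98 to 2.54. With weights from those errors the 36 hpf call was lost. For values as deposited or without the intensity trend, the F-test called 0 probe sets.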

How the results depend on the processing

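Of the 21 calls, 19 remained with array weights, 19 with no filter on dim probe sets, 16 with only the brighter probe sets (5 were then not tested), 15 with arrays centred on their medians, 15 with the replicate block, 14 with weights from the deposited standard errors and 9 without the intensity trend. The number of calls was 0 for the values as deposited, 0 for the 36 hpf arrays alone, 0 when those 6 were fitted alone after normalising all 18, and 9 without the trend, with 244, 628, 634 and 1415 past an unadjusted p under 0.05 in limma. Leaving out 1 array gave 12 to 293. With the replicate block there were 24 calls. It took the call from 6 of the 21 and gave one to fdps, ifrd1 and the keratin Dr.5531.3.S1_at, as stated beside each, and changed no other call given above. The F-test between times called 0 for values as deposited, 1 for brighter probe sets, 0 without the trend, 2079 with array weights, 1 with error weights, 6 with the block and 2 to 23 without 1 array. Of the 21, the number called in the same direction at 48 hpf (6) was 0 as deposited, 3 after centring, 3 with no filter, 2 for brighter probe sets, 2 without the trend, 11 with array weights and 3 to 8 without 1 array. At 60 hpf (8) it was 0 as deposited, 5 without the trend and 19 with array weights. The tnnt2a difference was 0.32 as deposited, 0.020 after centring and -0.68 to 0.35 without 1 array, never called. Several uncalled genes changed sign, with the range over the fits without 1 array given last. These were lbr (-0.11 centred, -0.053 with array weights, and -0.11 to 0.37), gnb1b (-0.052 to 0.48), six3a (0.00072 without control array 1), six3b (0.0016 with array weights, and -0.41 to 0.086), opn1mw4 (-0.30 to 0.86), rx3 (0.18 as deposited, 0.42 with error weights, and -0.43 to 0.50) and guca1b (-0.054 centred, -0.11 with array weights, -0.076 with error weights, and -0.12 to 0.22). The sterol median was 1.83 for the 36 hpf arrays alone, 1.19 for brighter probe sets and 1.75 for those 6 fitted alone. The retina median was -0.32 as deposited, -0.21 for the 36 hpf arrays alone, -0.18 for brighter probe sets, -0.37 with array weights, -0.36 with error weights, -0.20 fitted alone, -0.31 without the authors' names and -0.74 to -0.38 without 1 array. After centring the keratin median was -0.44 and the collagen median -0.06. The causes of these shifts were not tested. The alternative without the authors' names and the fit of 6 arrays after normalising 18 were chosen after seeing the data.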

Other observations

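Lens crystallins, the soluble proteins that fill lens fibre cells, had differences below 0 without any call. By description text 12 crystallin probe sets were tested, and all 12 differences were below 0, where 50.5% of all tested were above 0. Their median was -0.41, and 6 were lower at an unadjusted p under 0.05, as were 6.37% of all tested. In 3 of the 12 all morphant arrays lay below all control arrays, as in 6.93% of all tested. The alpha-crystallin cryaa read -3.34, -0.49 and -0.19 in morphants, against 2.19, 1.20 and 1.56 in controls (-3.00 ± 0.84, limma adjusted p = 0.194). A bright probe set similar to gamma-crystallin B, Dr.25729.1.S1_at, read 8.35, 8.62 and 8.66 in morphants, against 8.88, 8.91 and 8.96 in controls (-0.37 ± 0.09, adjusted p = 0.123). Without control array 1, 9 of 11 tested crystallins were below 0, with a median of -0.27 and 2 past the unadjusted threshold. At 48 hpf the median of the 12 was 0.19 and at 60 hpf -0.43.

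Tubulins, the subunits of microtubules and abundant in young neurons, also had more differences below 0 than above. Of 32 tubulin probe sets by description 25 were below 0, with a median of -0.17. Several of the 32 share a UniGene cluster, so they are not separate genes. The list for neurons and synapses had 12 of 20 above 0, with a median of 0.06. At an unadjusted p under 0.05, 9 tubulin probe sets were lower and 0 higher, against 6.37% and 6.82% of all tested, and without control array 1 there were again 9 lower, against 3.05%. Without control array 3, 4 were called lower, against 0.92% of all tested. The alpha-tubulin probe set Dr.11310.2.S1_x_at read 6.69, 6.56 and 6.99 in morphants, against 8.0, 7.13 and 7.52 in controls (-0.80 ± 0.18, limma adjusted p = 0.0947), and without control array 3 it was called (-0.82, adjusted p = 0.0434). The 4 probe sets called without that array belong to 1 UniGene cluster. Genes of the cell cycle had 23 of 27 differences below 0, with a median of -0.22. At an unadjusted p under 0.05, 2 of the 27 were lower and 0 higher, against 6.37% and 6.82% of all tested. The cyclin ccna2 read 5.70, 5.49 and 6.00 in morphants, against 6.80, 6.05 and 6.03 in controls, and the replication clamp pcna differed by -0.22 ± 0.12. Neither was called, and without control array 1 no gene of that list passed an unadjusted p under 0.05. For proteasome subunits 22 of 31 were below 0, and without control array 3, 2 were called lower. Other groups leaned below 0 too, such as heat shock and chaperone genes (18 of 24, median -0.15) and homeobox probe sets by description (40 of 59, median -0.18).

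For collagens 21 values were above 0 and 15 below. Of 36 probe sets caught by collagen in the description text, 11 were higher and 2 lower at an unadjusted p under 0.05. By that rule 6.82% of all tested were higher and 6.37% lower. The median of the 36 was 0.14. When the arrays were centred on their medians it was -0.06, with 16 above 0 and 20 below. In that scaling the median of all tested probe sets was -0.12. The 1 called is scarb2a, which is no collagen but is part of every count of this group, the 21 above 0 included. The cartilage collagens col2a1a (0.73 ± 0.25) and col9a2 (0.50 ± 0.16) and the vascular collagen col8a1a (1.41 ± 0.47) were not called (limma adjusted p = 0.242 to 0.269). In all 3 control array 1 was the lowest array, and without it 6 of the 36 were higher by the unadjusted rule, against 3.17% of all tested. Without control array 3, 8 of the 36, scarb2a again included, were called higher and 0 lower by limma, against 1.6% and 0.92% of all tested. Among the 8 were col2a1a (1.08, limma adjusted p = 0.0226) and col9a2 (0.69, adjusted p = 0.0259).

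A probe set described as type I cytokeratin, chosen after its values were seen, did not follow the groups. At 36 hpf it read 8.74, 9.19 and 1.38 in morphants, against 8.70, 9.07 and 0.20 in controls, with deposited standard errors of 4.27 and 5.81 on the arrays numbered 3 and 0.140 to 0.162 on the others. At 60 hpf it read 1.38, 7.21 and 9.11 in morphants, against 1.35, 6.60 and 9.08 in controls. The level went with the array number in both kinds of embryo at these times. At 48 hpf it was between 2.03 and 3.16 on all 6 arrays.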
